A study of Mus musculus with 2 samples.

Results

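Neutrophils selected for transcripts of specific granule proteins were examined among single cells sorted from mouse brain. The cells came from 23-week-old male littermates, either wild type at the Disc1 locus (Disc1 WT/WT) or homozygous for the Disc1 locus impairment allele (Disc1 LI/LI), which removes the scaffold protein DISC1 and is described as equivalent to a knockout. The brains of 6 mice per genotype were pooled before dissociation in the presence of the transcription inhibitor actinomycin D, CD45low CD11b+ cells were sorted, and each pool gave 1 droplet library of 3' transcripts counted by unique molecular identifiers (UMIs). With 1 library per genotype, no difference between genotypes has a replicate check, and every interval given here covers counting error within a library only. The Disc1 WT/WT library held 33601957 UMIs in 7038 barcodes and the Disc1 LI/LI library 47731571 UMIs in 7834 barcodes. Both libraries are labelled as microglia.

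Members were selected on measured transcripts. Among barcodes with 200 or more genes and no more than 10% of UMIs from mitochondrial genes, a cell was a member when S100a8 and S100a9 together took at least 3% of its UMIs, Ngp, Camp and Ltf together at least 1%, Mpo, Elane, Prtn3 and Ctsg together under 0.2%, and fewer than 3 of Mki67, Top2a, Cenpf, Birc5, Ube2c, Pbk and Cdk1 were detected. The levels of these 16 genes are therefore descriptions. The rule found 48 members among 7032 Disc1 WT/WT cells and 1426 among 7817 Disc1 LI/LI cells, 1474 of 14849 cells in all (9.93%). The libraries shared 12 barcodes, of which 1 was a member in both. Disc1, on chromosome 8 (125054195 to 125261858, mm10, plus strand), had 642 UMIs in the Disc1 WT/WT library (19.1 per 1000000 UMIs, written CPM below) and 22 in the Disc1 LI/LI library (0.461 CPM), in the direction of the labels. Among members it had 2 UMIs in each library.

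As background, neutrophils form in the bone marrow in ordered stages. Promyelocytes first fill azurophil granules with myeloperoxidase and serine proteases. Myelocytes and metamyelocytes then make specific granules, which carry lactoferrin, cathelicidin and lipocalin, and stop dividing on the way. Band and segmented cells make gelatinase granules last, then the secretory vesicles and receptors with which the mature cell answers chemokines. C/EBP epsilon is the transcription factor known for switching on the specific granule genes.

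The gate genes that define the stage lie close together on mouse chromosome 9. Ngp encodes neutrophilic granule protein (110419747 to 110423012, mm10, plus strand), Camp the cathelicidin antimicrobial peptide (109847379 to 109849617, minus strand) and Ltf lactoferrin (111019271 to 111042767, plus strand). Their upstream bases are shown because these genes carry the selection. Each run is read 5' to 3' on the strand of its gene, ends before the first annotated base of the gene, and comes from RefSeq sequence of GRCm38.p6, the mm10 assembly. Capitals mark matches to the C/EBP-type letters TTNNGNAAT or their reverse complement ATTNCNNAA, searched on both strands.
Ngp, chr9:110419597-110419746: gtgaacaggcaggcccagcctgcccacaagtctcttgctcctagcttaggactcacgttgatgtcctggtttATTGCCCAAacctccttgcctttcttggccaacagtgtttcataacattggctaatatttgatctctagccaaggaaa
Camp, chr9:109849618-109849706: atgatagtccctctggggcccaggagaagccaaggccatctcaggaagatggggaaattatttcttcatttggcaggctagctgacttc
Ltf, chr9:111019121-111019270: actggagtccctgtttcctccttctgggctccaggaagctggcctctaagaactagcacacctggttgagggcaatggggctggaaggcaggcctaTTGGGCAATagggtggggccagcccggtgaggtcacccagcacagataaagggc
The match in Ngp began 139 bases and that in Ltf 75 bases before the RefSeq start, and Camp had none. Of the 32851 promoter windows of equal length in the RefSeq table, 11.5% held these letters, as did the windows of 2 of the 5 marker genes (Ngp and Ltf, not Camp, Lcn2 or Mmp8). The letters were in 5 of 11 windows of the 10 genes highest in members relative to mature cells and in 3 of 11 windows of the 10 lowest. The 10 highest, of which 9 had a window, include the gate genes Ltf, Camp and Ngp, which are high by selection. The matches in Ngp and Ltf are the same as those counted among the markers, so these counts are descriptions. Other spellings of the motif were tried on the same windows, but only the counts of this spelling are given. A match is a description of letters only.

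The members held more RNA than mature neutrophils, and a few transcripts took much of it. UMIs per member ran from 1258 through a median of 6934.5 to 21080 in the Disc1 WT/WT library and from 1202 through 6504 to 26643 in the Disc1 LI/LI library. Mature neutrophils, which met the S100 criterion with less than 1% of Ngp, Camp and Ltf, had medians of 2742.5 and 2737 UMIs. The 16 gate genes together took 36.5% of all member UMIs in the Disc1 WT/WT library and 44.6% in the Disc1 LI/LI library. S100a8 and S100a9, the subunits of calprotectin, made up a median of 33.5% of the UMIs of a Disc1 WT/WT member and 38.3% of a Disc1 LI/LI member. Ngp, Camp and Ltf made up a median of 7.46% and 6.55%, with the highest members at 16.5% and 21.0%. Median genes per member were 1536 and 1312.5, and 385 and 341 after every cell was thinned to 1000 UMIs.

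**Figure D1:**
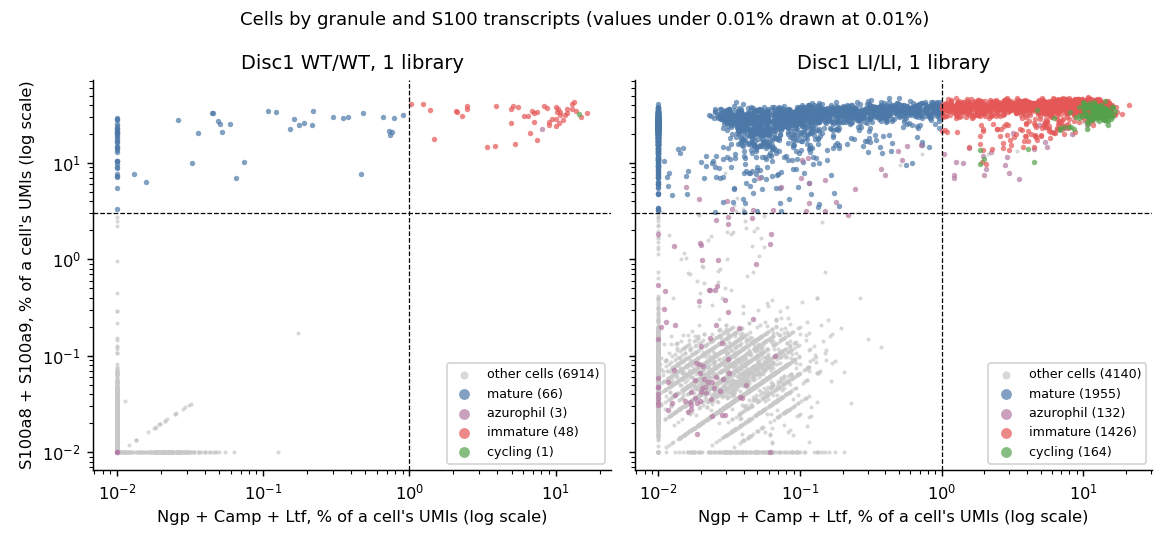
Each point is a cell, with the share of its UMIs from Ngp, Camp and Ltf on the x axis and from S100a8 and S100a9 on the y axis (both log scales) and dashed lines at the criteria of 1% and 3%. The 48 Disc1 WT/WT and 1426 Disc1 LI/LI members (red) continue the cloud of mature cells (blue) to the right, and the cycling cells (green) sit at the high end.

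No gap separated the members from mature cells along the granule criterion. In the Disc1 LI/LI library 54 members had 1 to 1.25% of their UMIs from Ngp, Camp and Ltf, and 77 cells just outside had 0.75 to 1%. In the Disc1 WT/WT library these counts were 2 and 3. The other criteria cut through few cells. No member had 3 to 4% of S100 transcripts in either library, and 1 Disc1 LI/LI member had 0.1 to 0.2% of azurophil transcripts. The cycling criterion left 24 Disc1 LI/LI members with 2 of the 7 genes detected and 169 with 1, against 11 cells just outside with 3.

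The markers that name the population were all present, although Mmp8 did not set it apart from mature cells. Lcn2, which encodes the iron-siderophore binding protein lipocalin 2, stood at 15943 CPM in Disc1 WT/WT members and 3141 CPM in mature cells, and at 17827 CPM and 5282 CPM in Disc1 LI/LI. Mmp8, the neutrophil collagenase, stood at 2234 CPM in Disc1 WT/WT members and 2247 CPM in mature cells, and at 2457 CPM and 2968 CPM in Disc1 LI/LI. Its log2 ratio was -0.01 (95% interval -0.16 to 0.15) and -0.27 (-0.30 to -0.25), and turned to 0.28 and 0.02 under scaling by the trimmed mean of M-values (TMM). Camp was found in 48 of 48 and 1425 of 1426 members, Lcn2 in every member, and Mmp8 in 83.3% of the Disc1 WT/WT members, against 86.8% in Disc1 LI/LI.

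Neutrophil transcripts were also counted in cells classed as microglia, more often in the Disc1 LI/LI library, and the part of free RNA or of doublets in this was not tested. Ngp had a UMI in 40.9% of Disc1 LI/LI microglia, at 0.740% of the level in members, and in 1.43% of Disc1 WT/WT microglia. Lcn2 had a UMI in 39.9% and Mmp8 in 8.27% of Disc1 LI/LI microglia. Il1b, in 22.2% of Disc1 LI/LI members and 10.6% of microglia, reached 77.7% of the member level in microglia, which also express it. Elane, the neutrophil elastase gene, stood at 49.3 CPM in Disc1 LI/LI members, 59.2 CPM in mature cells and 62.4 CPM in microglia, and 0 UMIs were counted in Disc1 WT/WT members.

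The 12 mature neutrophil markers, led by Retnlg, summed to 15338 CPM in Disc1 WT/WT members and 24055 CPM in Disc1 LI/LI members. Of the marker lists of other lineages, those of microglia and monocytes had the highest sums. Of 6 promyelocyte markers, Mpo, Elane, Ctsg and Prss57 were at 0 in Disc1 WT/WT members, where the list summed to 10.1 CPM, and none was at 0 in Disc1 LI/LI members, where it summed to 102 CPM. Eosinophil markers summed to 0 CPM in Disc1 WT/WT members, against 2.04 CPM in Disc1 LI/LI, with Epx, Prg3 and Ear1 at 0 in both. Basophil and mast cell markers summed to 2.53 and 8.24 CPM, T cell markers to 10.1 and 22.7 CPM, and NK cell markers to 2.53 and 4.56 CPM. Neuron markers summed to 0 and 0.0970 CPM, astrocyte markers to 0 and 0.970 CPM, endothelial markers to 10.1 and 3.10 CPM, and oligodendrocyte markers to 27.9 and 28.2 CPM. Dendritic cell markers summed to 152 and 49.7 CPM, with Siglech, which microglia also express, the most abundant at 111 and 26.9 CPM. Border macrophage markers summed to 25.3 and 33.8 CPM, erythroid markers to 5.07 and 18.8 CPM, and platelet markers to 15.2 and 3.30 CPM. Monocyte markers summed to 2450 and 1164 CPM, of which Ctss, also abundant in microglia, was the most abundant in Disc1 WT/WT and Ly6c2 in Disc1 LI/LI, and Ccr2 was at 0 in Disc1 WT/WT. The 12 microglia markers are taken up with the genotype comparison below.

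Members were more frequent in the Disc1 LI/LI library, and so were mature neutrophils. The share of members was 0.683% in the Disc1 WT/WT library (exact 95% interval 0.504 to 0.904%), against 18.2% in the Disc1 LI/LI library (17.4 to 19.1%), a 26.7-fold difference. Mature neutrophils numbered 66 of 7032 cells (0.727 to 1.19%) and 1955 of 7817 cells (24.1 to 26.0%), a 26.6-fold difference. As a share of members and mature neutrophils together, members were 42.1% in Disc1 WT/WT, 48 of 114 cells (32.9 to 51.7%), against 42.2% in Disc1 LI/LI, 1426 of 3381 cells (40.5 to 43.9%). Cycling granule-making cells, which met the other criteria with at least 3 of the 7 cycling genes, numbered 1 and 164. They were 2.04% (0.0517 to 10.9%) of cycling cells and members together in Disc1 WT/WT, against 10.3% (8.86 to 11.9%) in Disc1 LI/LI, and the intervals overlapped. All of these shares come after a CD45low CD11b+ sort aimed at microglia, and 1 pool per genotype does not tell genotype from differences between the pools in blood content, sorting or dissociation.

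Relative to mature neutrophils of the same library, members had higher levels of most genes listed for specific granules and late granulopoiesis and lower levels of many listed cytokine and receptor genes, which together are a small share of the genes called. A gene was called when it had at least 50 CPM in either population, the CPM differed at least 2-fold, and the 95% interval of the ratio excluded no difference. In Disc1 LI/LI, 111 of 2011 genes (5.52%) were higher in members and 415 (20.6%) lower, with a median log2 ratio over all of them of -0.38. In Disc1 WT/WT, 170 of 2792 genes (6.09%) were higher and 498 (17.8%) lower, with a median of -0.36. The split depended on scaling, because gate genes took 27.1% of UMIs in Disc1 LI/LI mature cells against 44.6% in members. TMM scaling moved the medians up by 0.35 and 0.34 and gave 203 higher and 260 lower in Disc1 LI/LI, and 300 and 292 in Disc1 WT/WT. Totals without the gate genes gave 357 higher and 284 lower, and 405 and 308. Because members were selected on their transcripts, these contrasts describe the cells chosen and test nothing. A gene that reached 50 CPM in 1 population alone could not be higher in the other, so counts over lists are given mainly for genes at 50 CPM or more in both populations. These were 1395 genes in Disc1 LI/LI, of which 51 were higher and 173 lower, and 1823 in Disc1 WT/WT, of which 54 were higher and 209 lower.

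A list of 19 genes, specific granule genes outside the gate together with others of late granulopoiesis such as Cybb and Anxa1, had the highest median of the lists. Of 16 at 50 CPM or more in both populations of Disc1 LI/LI, 9 were higher and 1 was lower, with a median log2 ratio of 1.64, and of 13 in Disc1 WT/WT 8 were higher and 1 lower, with a median of 1.14. The other 3 and 6 reached 50 CPM in members alone. Chil3, a chitinase-like protein of maturing neutrophils, stood at 3359 CPM in Disc1 WT/WT members and 12.5 CPM in mature cells, and at 4343 CPM and 178 CPM in Disc1 LI/LI. Its log2 ratio was 8.07 (6.52 to 10.35) and 4.61 (4.53 to 4.70). Orm1, an acute phase glycoprotein stored in these granules, had the largest ratio in Disc1 LI/LI, 176 CPM against 1.46 CPM or 6.91 (5.98 to 8.04), and 41 UMIs against 0 in Disc1 WT/WT, at least 8.33-fold higher with 3 UMIs as the floor. Fcnb, the ficolin of immature neutrophils, stood at 101 CPM and 0 UMIs in Disc1 WT/WT members and mature cells and at 78.3 CPM and 4.07 CPM in Disc1 LI/LI, where the log2 ratio was 4.27 (3.70 to 4.90). Each of these 3 genes was higher in members of both libraries. Serpinb1a, an inhibitor of neutrophil serine proteases, had log2 ratios of 4.27 (3.21 to 5.60) and 3.57 (3.41 to 3.73). Slpi, another protease inhibitor, was the member of the list that was lower, at 917 CPM against 2775 CPM and 1378 CPM against 2756 CPM. Its log2 ratio was -1.60 (-1.79 to -1.41) in Disc1 WT/WT, with an interval of -1.03 to -0.97 in Disc1 LI/LI, where the call was lost under both other scalings.

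Oxidase genes took part unevenly. Cybb, the catalytic subunit of the phagocyte NADPH oxidase, stood at 1647 CPM in Disc1 WT/WT members and 291 CPM in mature cells, and at 1328 CPM and 302 CPM in Disc1 LI/LI. Of the 7 oxidase genes it alone was called, with log2 ratios of 2.50 (2.14 to 2.88) and 2.14 (2.07 to 2.21). The medians of the list were 0.27 and 0.45.

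Gelatinase granule genes, made later in maturation, did not separate members from mature cells. Mmp9, the gelatinase itself, stood at 1315 CPM and 1267 CPM in Disc1 WT/WT and at 1285 CPM and 1262 CPM in Disc1 LI/LI, log2 ratios of 0.05 (-0.15 to 0.26) and 0.03 (-0.02 to 0.07). Of the 6 listed genes measured in Disc1 LI/LI and 7 in Disc1 WT/WT, Adam8, a membrane metalloprotease, was called lower in both libraries, and the medians were 0.16 in Disc1 LI/LI, against 0.05 in Disc1 WT/WT.

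Many receptor and secretory vesicle genes were lower in members. Of 12 at 50 CPM or more in both populations of each library, 8 were lower and 0 higher in Disc1 LI/LI, with a median of -1.68, and 6 and 0 in Disc1 WT/WT, with a median of -1.09. Another 3 and 2 reached 50 CPM in mature cells alone. Cxcr2, the receptor for neutrophil-attracting chemokines, stood at 193 CPM in Disc1 WT/WT members and 685 CPM in mature cells, and at 232 CPM and 769 CPM in Disc1 LI/LI. Its log2 ratio was -1.83 (-2.24 to -1.43) and -1.73 (-1.80 to -1.66). Csf3r, the receptor for granulocyte colony-stimulating factor, was lower by -2.62 (-3.19 to -2.09) and -2.41 (-2.51 to -2.31). Fpr2, a formyl peptide receptor, had ratios of 0.38 (-0.28 to 1.07) and 0.40 (0.28 to 0.52) and was not called. Cxcr4, the receptor that holds neutrophils in bone marrow, stood at 30.4 CPM in Disc1 WT/WT members and 70.6 CPM in mature cells, and at 56.0 CPM and 84.0 CPM in Disc1 LI/LI. It was called lower in Disc1 WT/WT, at -1.22 (-2.41 to -0.06), and not in Disc1 LI/LI, at -0.58 (-0.76 to -0.41). The Disc1 WT/WT call of Cxcr4 was lost under both other scalings.

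The lowest group was that of inflammatory cytokines and chemokines. All 4 genes at 50 CPM or more in both populations of Disc1 LI/LI were lower, with a median of -3.79, and 4 of 5 in Disc1 WT/WT, with a median of -3.73. Another 5 and 3 reached 50 CPM in mature cells alone, which fixed their direction. Il1b, which encodes interleukin-1 beta, stood at 220 CPM in Disc1 WT/WT members and 6260 CPM in mature cells, and at 138 CPM and 4495 CPM in Disc1 LI/LI, log2 ratios of -4.83 (-5.16 to -4.52) and -5.03 (-5.11 to -4.95). Cxcl2, a ligand of CXCR2, stood at 415 CPM and 5529 CPM in Disc1 WT/WT and at 733 CPM and 9336 CPM in Disc1 LI/LI. Ptgs2, the inducible cyclooxygenase, was lower by -3.37 and -4.13, and Nlrp3, the inflammasome sensor, by -2.64 and -4.02. Interferon response genes were mixed. Of 5 at 50 CPM or more in both populations, 1 was higher and 1 lower in Disc1 LI/LI, and 1 and 2 in Disc1 WT/WT, while 4 and 7 reached 50 CPM in mature cells alone. Among the latter Ifitm1, an interferon-induced membrane protein, stood at 12.7 CPM against 441 CPM in Disc1 LI/LI and 2.53 CPM against 478 CPM in Disc1 WT/WT. Ifitm6, a member of the same antiviral family known from neutrophils, went the other way, at 2052 CPM against 490 CPM in Disc1 WT/WT and 2453 CPM against 594 CPM in Disc1 LI/LI.

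Of 15 granulocyte transcription factors measured in Disc1 LI/LI and 18 in Disc1 WT/WT, Cebpe alone was called higher in members of each library, and 4 were lower in each among the 12 and 14 at 50 CPM or more in both populations. Cebpe, which reached 50 CPM in members alone, stood at 203 CPM in Disc1 WT/WT members and 8.31 CPM in mature cells, and at 251 CPM and 18.1 CPM in Disc1 LI/LI, log2 ratios of 4.61 (2.71 to 7.68) and 3.80 (3.52 to 4.09). Cebpb, a factor of mature and activated myeloid cells, was lower by -1.71 (-1.89 to -1.53) and -1.63 (-1.66 to -1.61), and the AP-1 subunit gene Junb by -1.90 (-2.11 to -1.68) and -1.88 (-1.92 to -1.84). Spi1, the myeloid factor PU.1, had ratios of -0.25 and -0.35, and Cebpd of -0.46 and -0.53. In Disc1 LI/LI, plain totals gave 1 factor higher and 6 lower among the 15 measured. TMM scaling gave 4 higher and 5 lower, counted over all 25 listed factors with no CPM minimum, so these counts cover different genes.

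**Figure D2:**
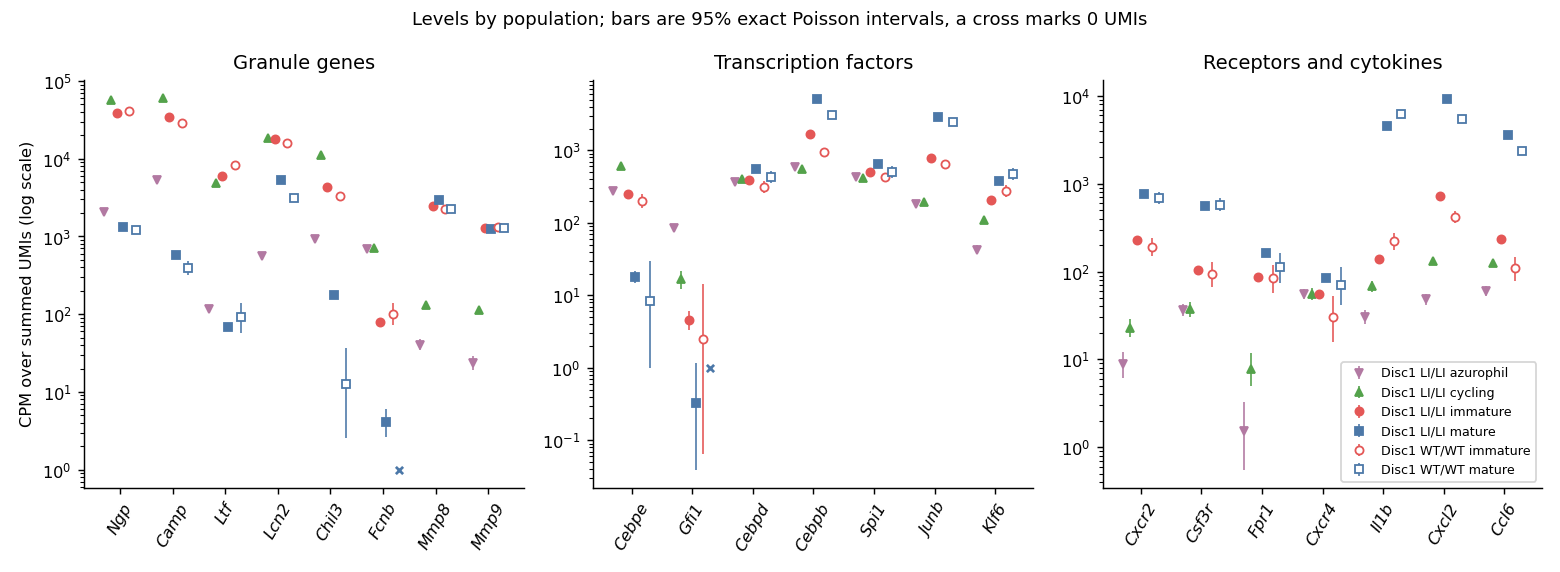
CPM over summed UMIs (log scale) of 22 genes in 4 Disc1 LI/LI populations (filled) and 2 Disc1 WT/WT populations (open), with 95% exact Poisson intervals and a cross, at an arbitrary height, for 0 UMIs. Members (red) stood far above mature cells (blue) for Chil3 and Cebpe, beside them for Mmp8 and Mmp9, and below them for Cxcr2 and Il1b.

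The same selection, applied to both libraries, gave contrasts that ran the same way. Of 108 genes outside the gate that were higher in Disc1 LI/LI members, 103 could be measured in Disc1 WT/WT, and all 103 had a ratio above 0 there. The Disc1 WT/WT list held 79 of them, which is 73.1% of the Disc1 LI/LI list and 47.3% of the 167 in the Disc1 WT/WT list. Of 415 lower genes, 388 could be measured, 385 had the same sign, and 272 were called, 65.5% of the Disc1 LI/LI list and 54.6% of the 498 in the Disc1 WT/WT list. No gene was called in opposite directions. The other genes with the highest ratios in Disc1 LI/LI were Inhba, an activin subunit, Ldhc, a lactate dehydrogenase, Zmpste24, a prenyl protein protease, and Tmem216, at log2 ratios of 6.05, 5.32, 4.74 and 4.72. Zmpste24 stood at 294 CPM in Disc1 WT/WT members and 12.5 CPM in mature cells, and the other 3 had 0 UMIs in Disc1 WT/WT mature cells. Among the lowest were Pla2g7, a plasma-type phospholipase, at -4.72 in Disc1 LI/LI and -6.74 in Disc1 WT/WT, and Fgl2, a fibrinogen-like protein, at -4.15 and -5.84. Gm5150, Sirpb1b and H2-Q10 completed the lowest 10, at -4.12, -3.98 and -3.94 in Disc1 LI/LI.

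**Figure D3:**
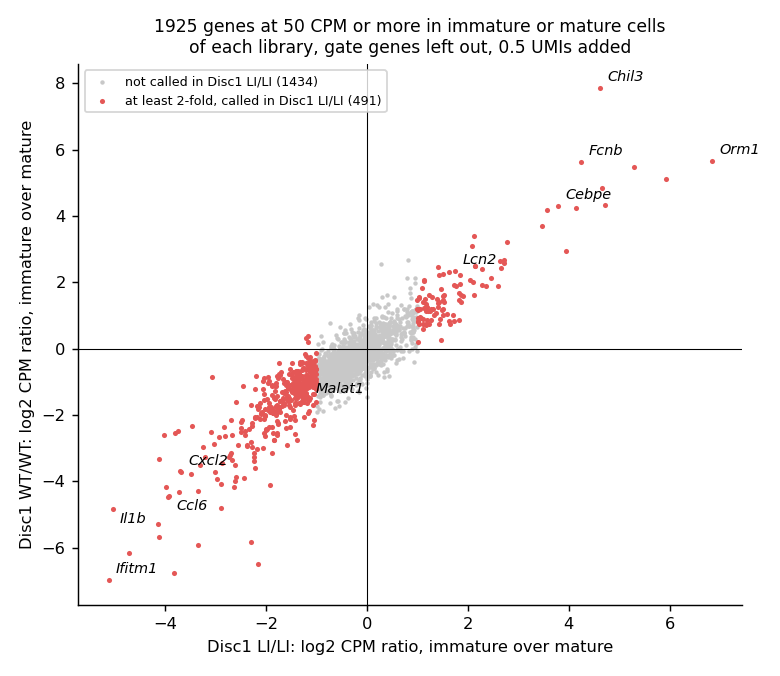
Each point is 1 of 1925 genes measured in both libraries, gate genes left out, with its log2 ratio of members over mature cells (0.5 UMIs added) in Disc1 LI/LI on the x axis and in Disc1 WT/WT on the y axis. The 491 genes called in Disc1 LI/LI (red) lie along the rising diagonal, and 0 were called in opposite directions.

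Cycling granule-making cells, profiled in Disc1 LI/LI only (164 cells, median 18395 UMIs), shared the specific granule transcripts and had less of the later ones. Relative to them, 305 of 2044 genes (14.9%) were higher and 426 (20.8%) lower in members. Of S phase genes outside the gate 10 of 22 reached 50 CPM in either population, and of G2 and M phase genes 21 of 24. All of these were lower in members, which the split on cycling genes and the CPM minimum largely fix, and no count over them is read as a result. Rrm2, a ribonucleotide reductase subunit, stood at 2.13 CPM in members and 267 CPM in cycling cells, and Stmn1, a microtubule regulator, at 27.6 CPM and 1171 CPM. Lcn2 stood at 17827 CPM and 18659 CPM. Fcnb, Cebpe and Chil3 were lower in members, by -3.17 (-3.29 to -3.05), -1.27 (-1.36 to -1.18) and -1.36 (-1.38 to -1.34). Mmp8, at 2457 CPM against 130 CPM, and Mmp9, at 1285 CPM against 115 CPM, were higher by 4.24 (4.10 to 4.39) and 3.49 (3.33 to 3.64). Retnlg, a resistin-like protein of late neutrophils, stood at 21149 CPM against 1325 CPM. Cxcr2 stood at 232 CPM against 22.9 CPM. It was among 9 receptor genes that reached 50 CPM in members alone, and of the 3 that did so in both populations 2 were higher.

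Azurophil-transcript cells, in which Mpo, Elane, Prtn3 and Ctsg took at least 1% of UMIs, numbered 132 in Disc1 LI/LI (median 31271.5 UMIs) and 3 in Disc1 WT/WT. Against the 132, 486 of 2855 genes (17%) were higher and 1581 (55.4%) lower in members. Of 11 specific granule and late granulopoiesis genes at 50 CPM or more in both populations, 7 were higher and 1 lower, with a median of 1.83 beside -0.39 over all such genes, and the other 8 reached 50 CPM in members alone. Of azurophil granule genes outside the gate 8 of 9 reached 50 CPM in either population, and their lower levels in members are largely fixed by that minimum and by the selection of the other cells on azurophil transcripts. Among these Ms4a3, a membrane protein of granulocyte precursors, stood at 9.89 CPM in members and 1581 CPM in azurophil-transcript cells, and Calr, the chaperone calreticulin, at 50.3 CPM and 720 CPM. Ly6g, the surface antigen that marks mouse neutrophils, stood at 1095 CPM and 19.4 CPM. Thbs1, which encodes thrombospondin 1, stood at 864 CPM and 13.1 CPM. Krt83, Scrg1, St3gal5, 1700047M11Rik and AA467197 were among the 10 highest, with Mmp8, Mmp9 and Fpr1. The lowest outside the gate were Hist1h1a, Hist1h3c, Ung, Esco2 and Rad51ap1, all genes of DNA replication or repair or of histones, with at most 2 UMIs in members, and Cst7, an inhibitor of cathepsins. All 80 measured cytosolic ribosomal protein genes were lower in members, with a median of -2.98 beside -1.27 over all 2855 genes. Gate genes took 44.6% of UMIs in members and 9.37% in azurophil-transcript cells, and no other scaling was computed for this comparison. Cebpe stood at 251 CPM and 272 CPM, a log2 ratio of -0.12 (-0.22 to -0.01) that was not called.

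Within the members, genes were ordered along the granule share itself. The bins of 1 to 2, 2 to 5, 5 to 10, and 10% and over of Ngp, Camp and Ltf held 207, 340, 495 and 384 Disc1 LI/LI cells and 4, 10, 18 and 16 Disc1 WT/WT cells. Median UMIs per cell went from 4446 in the lowest Disc1 LI/LI bin to 8906 in the highest, and genes at 1000 UMIs from 354 to 323. These orders share the cells and totals of the selection and are given as descriptions.

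Cebpe and some genes of the specific granule and late granulopoiesis list went up with the granule share, and other genes of the list did not. Cebpe went from 43.5 to 80.6, 218 and 441 CPM across the Disc1 LI/LI bins and from 41.4 to 61.6, 213 and 311 CPM across the Disc1 WT/WT bins. Chil3 went from 538 to 7926 CPM in Disc1 LI/LI and from 497 to 5958 CPM in Disc1 WT/WT. Lcn2 went from 10324 to 24477 CPM and from 6756 to 24255 CPM. Fcnb and Orm1 were both at 2.02 CPM in the lowest Disc1 LI/LI bin and at 198 and 406 CPM in the highest. Mmp8, also of that list, went from 4100 to 3773, 2847 and 843 CPM across the Disc1 LI/LI bins and from 3357 to 1941 CPM in Disc1 WT/WT, and Ceacam10, an adhesion molecule gene, from 242 to 124 CPM in Disc1 LI/LI. Pglyrp1, a peptidoglycan recognition protein, stood at 2876 CPM in the lowest and 2943 CPM in the highest Disc1 LI/LI bin, and Hp, haptoglobin, at 2386 and 2564 CPM.

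Several genes of later stages went down. Retnlg went from 54326 to 3858 CPM in Disc1 LI/LI and from 36351 to 6213 CPM in Disc1 WT/WT. Cxcr2 went from 487 to 70.1 CPM in Disc1 LI/LI and from 622 through 116 to 160 CPM in Disc1 WT/WT. Mmp9 went from 1835 to 660 CPM in Disc1 LI/LI but stood at 870, 1700, 1290 and 1182 CPM across the Disc1 WT/WT bins, and Fpr2 stood at 182, 169, 203 and 139 CPM across those of Disc1 LI/LI. Junb went from 1620 to 319 CPM in Disc1 LI/LI. Cebpd, by contrast, stayed between 345 and 445 CPM across the Disc1 LI/LI bins. At least 1 cycling gene was detected in 9.66% of the lowest and 19.5% of the highest Disc1 LI/LI bin, whose cells also had more UMIs.

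**Figure D4:**
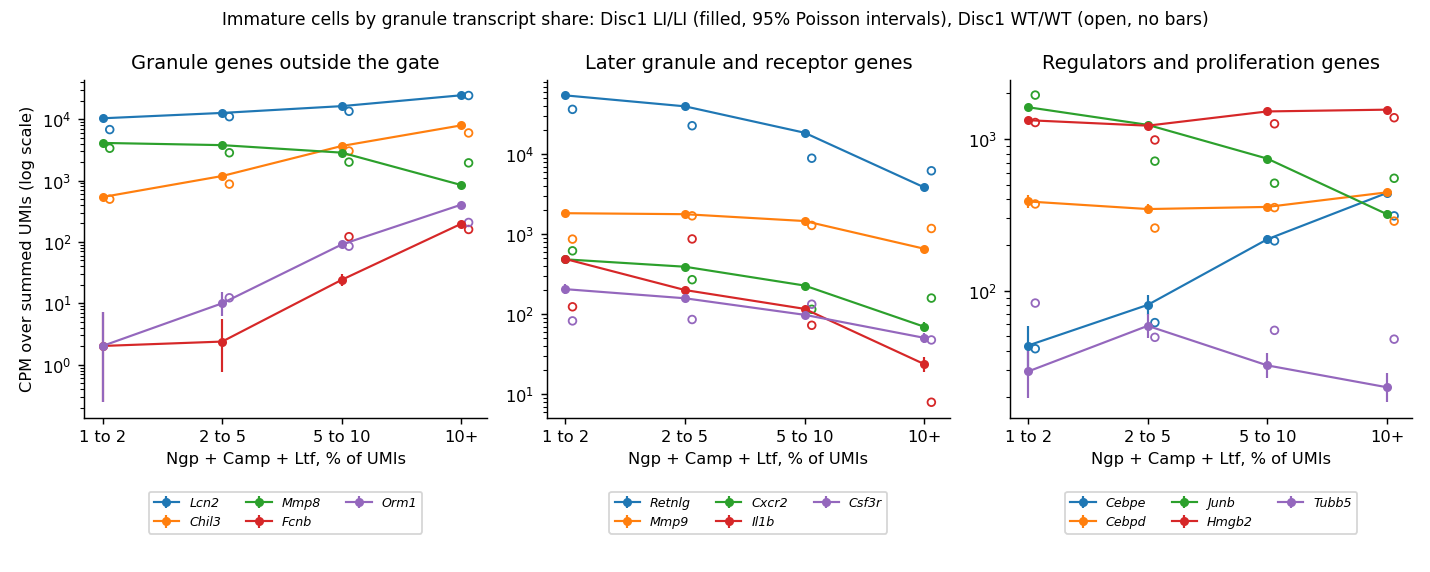
CPM (log scale) of 15 genes in members binned by the share of UMIs from Ngp, Camp and Ltf, in Disc1 LI/LI (filled points joined by lines, 95% exact Poisson intervals) and Disc1 WT/WT (open points, no bars, 4 to 18 cells a bin, bins at 0 not drawn). In Disc1 LI/LI, Lcn2, Chil3, Fcnb, Orm1 and Cebpe climb to the right, while Retnlg, Cxcr2, Mmp8 and Junb decline.

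Between genotypes, most granule genes of the members differed less than 2-fold, and genes far higher in microglia than in neutrophils were mostly called lower in Disc1 LI/LI. Of 2240 genes, 15 (0.67%) had higher levels and 425 (19%) lower levels in Disc1 LI/LI members, relative to Disc1 WT/WT members, with a median log2 ratio of -0.42. Among the 1482 genes at 50 CPM or more in both populations, 4 were higher and 98 lower. TMM scaling moved that median up by 0.83 and turned the split to 252 higher and 96 lower, and totals without the gate genes gave 66 higher and 521 lower. Directions near 0 in this comparison therefore belong to the scaling. Of the 19 specific granule and late granulopoiesis genes 0 were called higher and 2 lower, with a median of 0.16. Under TMM 6 were higher and 0 lower, with a median of 0.86, and with totals without the gate genes 0 were called, with a median of 0.36. Ngp stood at 41178 CPM in Disc1 WT/WT and 38234 CPM in Disc1 LI/LI, Camp at 28725 and 33951 CPM, and Ltf at 8380 and 6055 CPM. The genes called lower with the plain totals, and with neither other scaling, were Olfm4, a glycoprotein found in a subset of neutrophils, at 616 CPM and 272 CPM or -1.18 (-1.37 to -0.98), and Abca13, a membrane transporter, at 134 CPM and 66.0 CPM or -1.02 (-1.43 to -0.59). Cebpe stood at 203 CPM and 251 CPM, 0.31 (-0.01 to 0.65).

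Microglial RNA in the members moved with the genotype. The 12 microglia markers took 0.872% of the UMIs of Disc1 WT/WT members, against 0.184% for Disc1 LI/LI members, and 4.86% and 4.82% in microglia themselves. None was at 0 in members of either library, and C1qa was the most abundant in Disc1 LI/LI members. This RNA was concentrated, since 15 of 48 Disc1 WT/WT members and 97 of 1426 Disc1 LI/LI members had at least 6 of the 12 markers, and they held 97.8% and 84.9% of the marker UMIs. Their median depth was 13245 UMIs against 6395 for the other members in Disc1 WT/WT, and 10053 against 6308 in Disc1 LI/LI. Among the 10 lowest genes were Sox4, Nav3, Cttnbp2nl, Frmd4a, Abca9, Slc1a3 and Cxxc5, with Sall1, a transcription factor of microglial identity, and Mertk, a receptor for apoptotic cells. Genes at 50 CPM or more in both member populations were grouped by their level in Disc1 WT/WT microglia over Disc1 LI/LI mature neutrophils, neither of which enters the genotype ratio. Where a gene stood at least 8-fold higher in microglia, 33 of 34 were called lower (97.1%), and between 2-fold and 8-fold higher 50 of 380 were (13.2%). Where it stood at least 2-fold lower in microglia, 5 of 423 were (1.18%).

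Leaving out members with at least 6 markers, a setting added once the data had been seen, lowers the markers by construction, and C1qa, C1qb and Cx3cr1 are among them. C1qa stood at 1821 CPM in Disc1 WT/WT members and 479 CPM in Disc1 LI/LI members, a ratio of -1.93 (-2.04 to -1.81), and at 109 CPM and 75.1 CPM or -0.54 (-1.14 to 0.13) without those cells. The markers did not all follow, since P2ry12, a purinergic receptor of microglia, went from -2.90 (-3.10 to -2.70) to -1.83 (-2.87 to -0.58), with 8 UMIs left in Disc1 WT/WT. Of the complement genes that are not markers, C1qc went from -2.04 (-2.17 to -1.91) to -0.87 (-1.35 to -0.35), and to -1.16 (-1.73 to -0.54) without cells with at least 3 markers. Cd81, a membrane protein in the study's complement group, went from -1.68 (-1.87 to -1.48) to -0.50 (-1.05 to 0.11). All 4 measured complement genes were called lower over all members with plain totals, and 0 without members with at least 6 markers. Under TMM 3 were lower over all members, with the Cd81 call lost, and with totals without the gate genes 4. C1qb, a marker, went from -1.83 (-1.96 to -1.71) to 0.61 (-0.28 to 1.67) when members with at least 6 markers were left out. Without those cells, 33 Disc1 WT/WT and 1329 Disc1 LI/LI members remained, the markers stood at 356 CPM and 311 CPM, and 39 genes were higher and 200 lower. Olfm4 and Abca13 had ratios of -1.30 (-1.53 to -1.05) and -1.28 (-1.77 to -0.75) in them with plain totals. Olfm4 had a UMI in 9 of the 48 Disc1 WT/WT members and in 136 of the 1426 Disc1 LI/LI members.

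**Figure D5:**
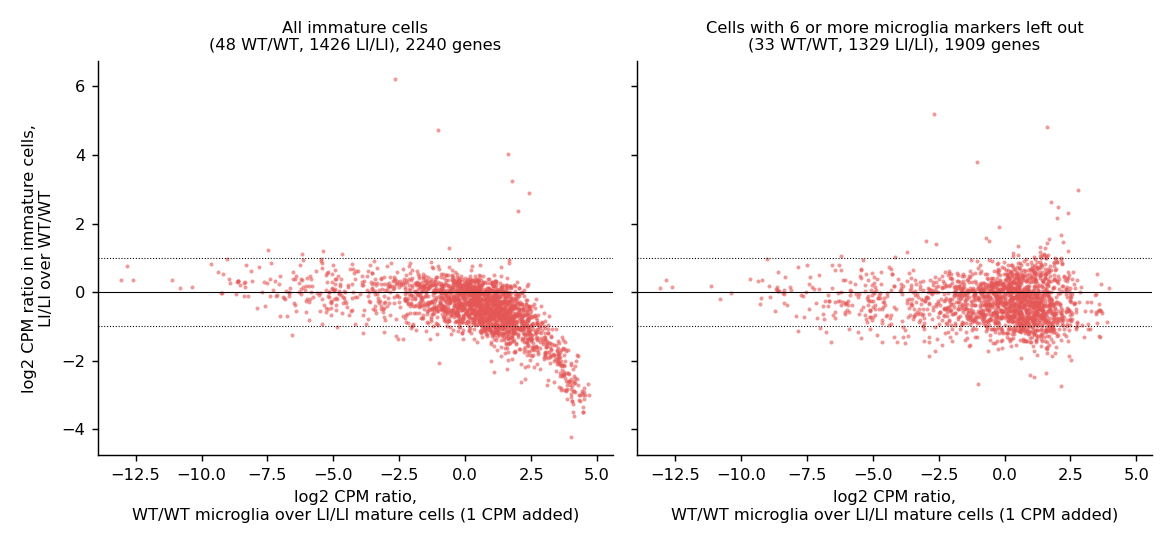
Each point is a gene, with the log2 ratio of its CPM in Disc1 WT/WT microglia over Disc1 LI/LI mature neutrophils on the x axis (1 CPM added) and of Disc1 LI/LI over Disc1 WT/WT members on the y axis (0.5 UMIs added, dotted lines at 2-fold). Over all members, with 2240 genes, the ratios bend down among the genes highest in microglia, and in the right panel, with 1909 genes and fewer at the far right, the bend is not seen after members with at least 6 of 12 microglia markers are left out.

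Of the 15 genes higher in Disc1 LI/LI members, 11 reached 50 CPM in that library alone. Igkc, the kappa light chain of antibodies, had 973 UMIs (94.3 CPM) against 0 in Disc1 WT/WT members, at least 12.4-fold higher with 3 UMIs as the floor. Crip1 stood at 101 CPM against 2.53 CPM, Cd74, the chaperone of MHC class II, at 226 CPM against 12.7 CPM, and H2-Aa at 83.0 CPM against 7.60 CPM. H2-Eb1 and H2-Ab1 had 3 and 4 UMIs in Disc1 WT/WT. Without members that had at least 6 microglia markers, these 3 H2 genes were still called, each on 2 UMIs in Disc1 WT/WT. With 0.5 UMIs added, H2-Aa was at 2.62 (1.09 to 5.99), H2-Eb1 at 2.30 (0.76 to 5.67) and H2-Ab1 at 2.16 (0.62 to 5.53). Without members that had at least 3, the calls of these 3 genes were lost. The log2 ratios were 1.30 (-0.57 to 4.35) for H2-Aa, 1.08 (-0.79 to 4.13) for H2-Eb1 and 0.66 (-1.22 to 3.71) for H2-Ab1, and Cd74 was then at 0 UMIs in Disc1 WT/WT. In the same Disc1 LI/LI library Igkc stood at 151 CPM in mature cells, 49.4 CPM in azurophil-transcript cells and 5512 CPM in the cells classed as microglia, and Cd74 at 343 CPM in mature cells and 1614 CPM in microglia. B and plasma cell markers summed to 65.9 CPM in Disc1 WT/WT members and 104 CPM in Disc1 LI/LI members, with Ighm, an antibody heavy chain, the most abundant at 60.8 and 55.7 CPM, a log2 ratio of -0.13 (-0.72 to 0.53), and Cd79a, Ms4a1, Jchain and Ebf1 among those at 0 in Disc1 WT/WT. The part of free RNA in these genes was not tested. The rest of the 10 highest, Timm8b, Mirt2, Cytip and Ccl6, had 9, 8, 20 and 43 UMIs in Disc1 WT/WT members and log2 ratios of 1.37, 1.31, 1.24 and 1.12.

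Because the study concerns DISC1 and the cytoskeleton, the branched actin genes are given for members too. Of the 9 genes of the ARP2/3 complex, which nucleates actin branches, 0 were called higher or lower between genotypes, with a median of -0.06 that TMM scaling moved to 0.63. Actr2, which encodes ARP2, stood at 489 CPM in Disc1 WT/WT and 271 CPM in Disc1 LI/LI members, -0.85 (-1.06 to -0.63), and at 547 CPM and 269 CPM without members that had at least 6 microglia markers, -1.02 (-1.29 to -0.74), where it was called with plain totals. TMM scaling adds 0.69 to every ratio over all members. Actr3 stood at 1031 CPM and 737 CPM, -0.48 (-0.63 to -0.34), and Arpc1b at 790 CPM and 911 CPM, 0.21 (0.04 to 0.37). Against mature cells the complex had a median of -0.09 in both libraries, 0.20 under TMM. Of 17 actin regulators measured between genotypes 1 was called, Cyfip1 of the WAVE complex, at 165 CPM and 63.3 CPM or -1.38 (-1.75 to -0.99). None, or 0, were called without members that had at least 6 microglia markers, where Cyfip1 was at -0.56 (-1.30 to 0.29). The Cyfip1 call was lost under TMM. Over all 18 listed actin regulators with no CPM minimum, rather than the 17 measured, TMM gave 3 higher and 1 lower. Totals without the gate genes gave 0 higher and 2 lower on that count. Of 5 formin-associated genes the study names, Diaph2 alone reached 50 CPM, at 104 CPM and 49.0 CPM or -1.08 (-1.55 to -0.59). It was not called without members that had at least 6 microglia markers, at -0.73 (-1.45 to 0.09). Over all members its call was also lost under both other scalings.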

How the data were processed

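The authors made the deposited UMI count matrices, whole-number counts of each gene in each barcode, using Cell Ranger (6.1.2 per the file headers) and STAR against mm10. The submitters' processing notes also name Seurat 3.0.1. Libraries were prepared on Chromium Chip B or Chip G, and which library used which is not given in the sources used here. Barcodes were kept as stated in the report, and no doublet caller was run. Cells with several microglia markers were left out as an alternative. Populations were summed per library with Python 3.11.15, numpy 2.4.6 and scipy 1.17.1, and CPM are per 1000000 UMIs of the population, not per length. Populations under 20 cells were not profiled. Intervals are exact Poisson for levels, Clopper-Pearson for shares and conditional binomial for ratios, at 95%, cover counting error only, and come from 1 library per genotype, so no p-value was computed. TMM factors came from edgeR 4.0.16. Promoters were read from RefSeq. Named genes were the markers, the gate genes, members of described lists, Disc1, and the 10 highest and 10 lowest called ratios of 3 comparisons by ratio with 0.5 UMIs added. Retnlg is from the mature neutrophil markers. The members and gene lists were chosen with earlier results of these data known. Of 343 listed genes 341 were in the matrices. The scripts were tested on simulated data. Some listed genes are not reported here.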

Additional observations from a re-analysis of the deposited data

Results flagged for a closer look

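In the Disc1 LI/LI library, 2 barcodes outside the cell filter on genes and mitochondrial UMIs also met the transcript criteria for members. In the Disc1 WT/WT library 0 of 6 removed barcodes did. They were set aside as data outside the measurements above, and keeping all 17 removed Disc1 LI/LI barcodes left the counts of genes called against mature cells at 526. With 1 library per genotype, no group had the 4 samples that a check for outlying samples needs.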

How the results depend on the processing

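No paired analysis was possible because each genotype has 1 library. Leaving out members with at least 3 microglia markers lowered their share to 0.327% in Disc1 WT/WT, against 14.2% in Disc1 LI/LI. Their median genes fell to 1350 and 1258. Leaving out members with at least 6, an alternative chosen after seeing the data, gave shares of 0.469% and 17.0% and a Disc1 LI/LI median of 1290 genes. In both settings the denominator stayed at all cells that passed the filter, microglia and the left-out members included. A granule criterion of 2% gave 15.6% and 1352 genes in Disc1 LI/LI, no cycling gene allowed gave 15.8%, and thinning gave medians of 385 and 341 genes. Genes called against mature cells, 526 in Disc1 LI/LI, became 850 at 20 CPM and 2112 with no CPM minimum, and the 668 of Disc1 WT/WT became 378 after thinning. Genes called between genotypes, 440, became 289 without cells with at least 3 markers and 239 without cells with at least 6. They became 230 without the 5% of cells with the most UMIs, 289 by the mean over cells, 1104 at 20 CPM and 1632 with no minimum. The settings with no CPM minimum still required at least 10 UMIs over both populations. By the mean over cells, genes were called on the 2-fold ratio alone, without an interval. Reversed ratios among the genes followed through these settings were all between genotypes, with 0.5 UMIs added. Timm8b went to -0.46 after thinning, and Abca9 to 0.42 without cells with at least 6 markers. Sall1 went to 1.75 and Mertk to 1.67 without the 5% of cells with the most UMIs. Against mature cells, 305 of 308 values of named genes in Disc1 LI/LI and 292 of 308 in Disc1 WT/WT kept both their direction and whether they were called, and between genotypes 286 of 350, where 53 lost the call. The remaining causes were not tested. With 48 Disc1 WT/WT members, 1 UMI was worth 2.53 CPM, so low genes are resolved in Disc1 LI/LI only.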

Other observations

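Several other gene groups were compared between members and mature neutrophils. Of 4 stefin and protease inhibitor genes at 50 CPM or more in both populations of Disc1 LI/LI, 1 was higher and 1 lower, and another 4 reached 50 CPM in mature cells alone. Among these Cstdc4, a stefin-like cysteine protease inhibitor gene, stood at 40.8 CPM in members and 575 CPM in mature cells. Because stefin genes are near-identical copies, their UMIs may be split between them. Of S100 genes outside the gate, S100a6 was lower in both libraries, at 3531 CPM against 8250 CPM in Disc1 WT/WT and 4317 CPM against 11557 CPM in Disc1 LI/LI. The Disc1 WT/WT call of S100a6 was lost under both other scalings. The nuclear RNA Neat1 was lower in both, at 127 CPM against 341 CPM and 119 CPM against 305 CPM, and Malat1 in Disc1 LI/LI, at 9334 CPM against 20853 CPM. The Malat1 call was lost under both other scalings, and that of Neat1 in Disc1 LI/LI with totals without the gate genes.

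The median of the glycolysis genes stood above that of all genes in both libraries, and ribosomal protein genes were not called. Of 12 glycolysis and glycogen genes 0 were called in Disc1 LI/LI and 3 were higher in Disc1 WT/WT (Hk3, Ldha and G6pdx), of which 2 reached 50 CPM in members alone. The medians were -0.04 and 0.56 beside -0.38 and -0.36 over all genes, and TMM moved the list to 0.25 and 0.86. Over all 14 listed genes with no CPM minimum, rather than the 12 measured, TMM gave 2 higher in Disc1 LI/LI and 4 in Disc1 WT/WT. Totals without the gate genes gave 3 and 6 on that count. Of 79 and 80 measured ribosomal protein genes 0 were called in Disc1 LI/LI and Disc1 WT/WT, with medians of -0.13 and -0.44, and 0.16 and -0.15 under TMM. Among chemokine receptor and retention genes at 50 CPM or more in both populations, 5 of 6 were lower in Disc1 LI/LI, with a median of -1.57, and 3 of 5 in Disc1 WT/WT, with a median of -1.70. Of azurophil granule genes outside the gate, Srgn, the proteoglycan serglycin that packs granule proteases, was called lower in both libraries, at 573 CPM against 3003 CPM and 800 CPM against 4469 CPM.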
